A study of Mus musculus with 24 samples.

Results

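The genes described are 9 that mark naive T cells or guide lymphocytes into and out of lymph nodes. They were chosen by name, as every array probe annotated to *Ccr7*, *S1pr1*, *Klf2*, *Tcf7*, *Lef1*, *Bcl11b*, *Satb1*, *Il7r* or *Dapl1*, and are 9 of the 29742 genes on the array. Blood RNA was measured in 24 male C57BL/6J mice, 1 mouse per array, in 4 groups of 6 that cross age (2 months, called young, and 21 months, called old) with irradiation (none, or 4 Gy of x-rays 24 h before the blood was drawn). The series asks how age alters the response of blood genes to radiation. The sample was whole blood lysed at collection, with globin RNA reduced before labelling, no sorting and no cell counts in the deposited files, so each value is a mixture over all blood cells. Fewer cells of a type and less RNA per cell cannot be told apart in such values. Levels are given as log2 of the background-subtracted spot signal minus the array's median over its spots that are not controls, so a difference of 1 is a doubling.

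Naive T cells circulate between blood and lymph nodes until they meet their antigen. The chemokine receptor CCR7 draws them into the node, the lipid receptor S1PR1 lets them leave it, and the transcription factor KLF2 keeps genes of this traffic switched on. TCF1 (encoded by *Tcf7*) and LEF1 are paired DNA-binding factors that maintain the naive and early memory state, BCL11B and SATB1 hold T cell identity and chromatin organisation, and the IL-7 receptor chain encoded by *Il7r* carries the survival signal of resting T cells. *Dapl1* is a gene of little described function whose RNA is abundant in naive T cells. Several of these genes are shared with other cells: B cells also use *Ccr7*, *S1pr1* and *Satb1*, and *Klf2* is expressed in endothelium and myeloid cells.

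Some arrays stood apart. The distance between 2 arrays was the scaled median absolute deviation of their differences over detected genes. It was taken after quantile scaling, not on the levels defined above. Its median for pairs within a group was 0.50. Old irradiated replicates 4 and 6 were 0.31 from each other and at least 1.16 from each of the other 22 arrays. Their median signals were 8.66 and 8.84, and those of the other arrays ran from 14.4 to 44.8. Several comparisons with old irradiated mice are therefore also given without these 2 arrays. The marker lists are given only with them. So are the changes of *Bcl11b* and *Il7r* from unirradiated to irradiated old mice on the array median scale. Old unirradiated replicates 1 and 6 were unusually alike (0.17), as were young irradiated replicates 2 and 5 (0.19). Each array is labelled as its own mouse, and whether these pairs are separate mice was not tested. Markers of hepatocytes, led by *Apoa2*, had mean levels above 5 in young unirradiated replicate 5, in young irradiated replicates 2, 4 and 5, and in old irradiated replicates 2, 3 and 5. The 2 ages were scanned on separate days, so age and scan day cannot be told apart.

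Mean levels over the 24 arrays, irradiated mice included, are given for marker genes of blood cells, each the highest of its list. They were 14.69 for haemoglobin (*Hba-a1*), 12.32 for platelet factor 4 (*Pf4*) and 11.98 for the neutrophil protein gene *S100a9*. The B cell receptor chain *Cd79b* was at 8.47 and the T cell receptor subunit *Cd3e* at 7.33. All 9 genes passed the filters, and the probe taken for each gene was well above background on 24 of 24 arrays, except that of *Dapl1*, which was so on 22. In unirradiated young mice the group means ran from *Klf2* at 9.05 and *Ccr7* at 8.27 down to *Il7r* at 4.82 and *Bcl11b* at 4.02. These are levels on different probes and do not order the genes by RNA abundance.

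The lymph node entry receptor gene *Ccr7* (probe A_55_P2023542, chr11:99005551-99005610, minus strand, mm9) lay in unirradiated young mice between 8.08 and 8.44, with a median of 8.31. In irradiated young mice it lay between 4.61 and 5.78, with a median of 5.08. Every irradiated young mouse was below every unirradiated one. *Ccr7* fell by 3.14 on the log2 scale (SE 0.20, 8.80-fold, limma adjusted p = 5.49e-07, 6 mice per group), which left 11.4% of its starting level. The exit receptor gene *S1pr1* (A_52_P532227, chr3:115414020-115414079, minus strand) had a median of 5.32 (lowest 5.15, highest 5.85) in unirradiated young mice and of 3.77 (lowest 3.69, highest 5.22) in irradiated ones. Of the irradiated mice 5 were close together and low, and replicate 4 was within the unirradiated range. *S1pr1* fell by 1.43 (SE 0.26, 2.69-fold, adjusted p = 0.000713). *Klf2*, the regulator of this receptor (A_51_P144264, chr8:74845137-74845196, plus strand), had medians of 9.13 (8.62 to 9.26) without and 8.70 (8.37 to 9.01) with irradiation. The groups overlapped, and the difference of -0.35 (SE 0.16, adjusted p = 0.0885) was not called.

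The factors that hold the naive state were also lower in irradiated young mice. *Tcf7* (A_52_P244702, chr11:52066114-52066173, minus strand) had a median of 5.21 (5.02 to 5.54) in unirradiated and of 2.39 (2.05 to 3.63) in irradiated mice. *Lef1* (A_55_P2076871, chr3:130926200-130926259, plus strand) had medians of 6.97 (6.71 to 7.14) and 4.47 (3.95 to 5.85). The groups did not overlap for either gene, and irradiated replicates 1 and 6 were the highest irradiated mice in both. *Tcf7* fell by 2.58 (SE 0.27, 5.97-fold, adjusted p = 1.68e-05) and *Lef1* by 2.20 (SE 0.31, 4.59-fold, adjusted p = 0.000139). *Bcl11b*, a zinc finger factor of T lineage commitment, went from a median of 4.08 (3.85 to 4.12) to 1.79 (0.80 to 3.06), and *Satb1* (A_51_P324228, chr17:51879137-51879196, minus strand), a chromatin organiser, from 6.28 (5.91 to 6.45) to 4.40 (3.09 to 5.67). Neither gene's groups overlapped, and the irradiated mice were spread far more widely than the unirradiated ones. *Bcl11b* fell by 2.04 (SE 0.31, adjusted p = 0.000224) and *Satb1* by 1.74 (SE 0.35, adjusted p = 0.00153). Another probe of *Lef1* (A_51_P420400), of *Tcf7* (A_55_P2109633) and of *Bcl11b* (A_52_P925277) gave changes of -2.11, -2.72 and -1.86. In irradiated young mice the other *Tcf7* probe was well above background on 4 of 6 arrays and the other *Bcl11b* probe on 5 of 6, so the sizes of these 2 changes are uncertain.

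The survival receptor gene *Il7r* (A_51_P196695, chr15:9435976-9436035, minus strand) had a median of 4.85 (4.53 to 5.17) in unirradiated and of 2.84 (2.25 to 3.62) in irradiated young mice. It fell by 1.88 (SE 0.24, 3.67-fold, adjusted p = 6.30e-05), and the groups did not overlap. *Dapl1* moved most of the 9 genes: its median was 5.73 (5.04 to 5.95) without and 0.71 (0.27 to 2.07) with irradiation. Every irradiated mouse was below every unirradiated mouse, and all 6 irradiated mice were still well above background. *Dapl1* fell by 4.70 (SE 0.28, 26.0-fold, adjusted p = 4.81e-07), which left 3.84% of its starting level. The size depended on the processing, from -2.96 with normexp background subtraction to -5.08 in the deposited table. The 60-base probes that read the genes with the largest fall in young mice, *Dapl1*, and with the closest tie to the T cell receptor genes, *Bcl11b*, are shown so that the measured stretch can be traced. They are written from the deposited files 5′ to 3′, in lower case throughout because no motif is marked, and lie on mm9 at chr2:59342824-59342883 (plus strand) and chr12:109153847-109153906 (minus strand).
*Dapl1* A_51_P391955: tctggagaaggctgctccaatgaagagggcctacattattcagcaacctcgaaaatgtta
*Bcl11b* A_51_P171772: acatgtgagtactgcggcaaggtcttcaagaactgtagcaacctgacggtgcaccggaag

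**Figure D1:**
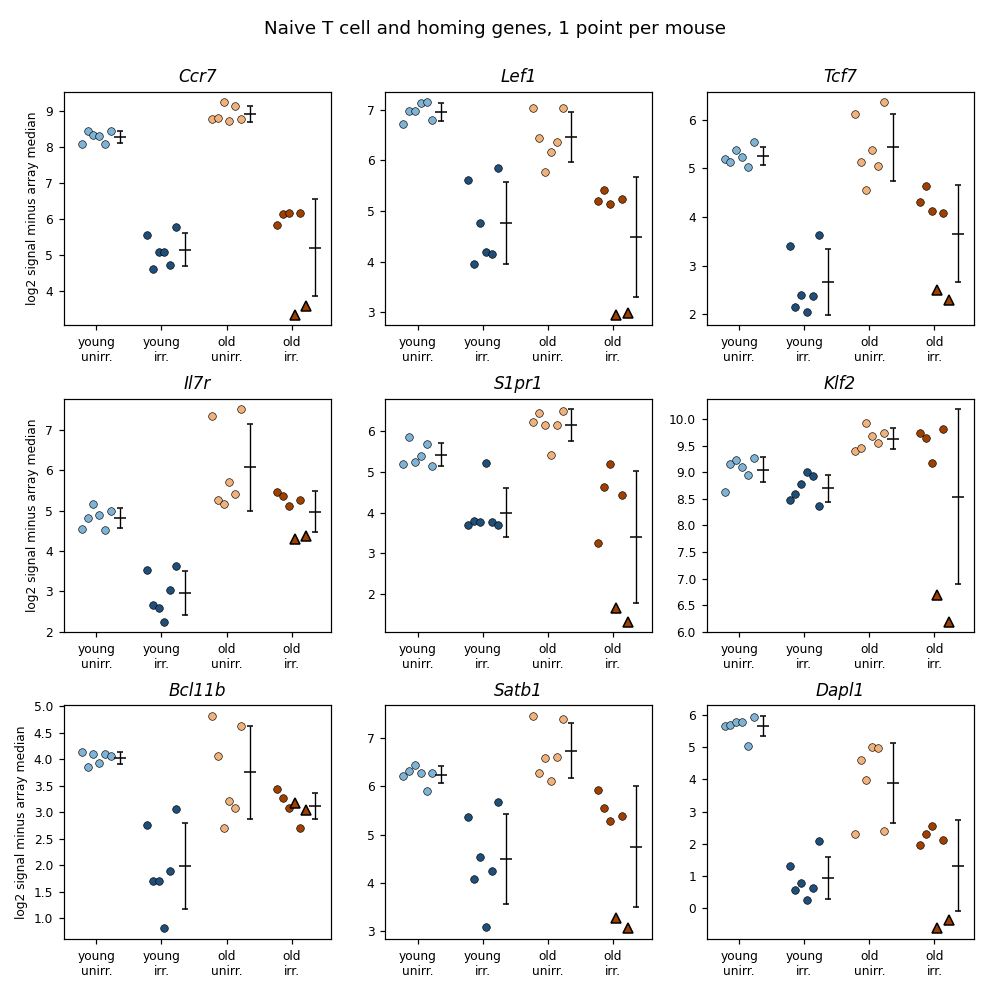
Level of each of the 9 genes (log2 signal minus array median, vertical axis) in each of the 24 mice by group, with the group mean and SD as a bar beside the points. Triangles are old irradiated replicates 4 and 6, where *Ccr7* was at 3.34 and 3.58 and *Klf2* at 6.69 and 6.19.

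In young mice 8 of the 9 genes were called lower after irradiation, at p below 0.005 and an adjusted p below 0.05 over the 17805 genes tested, and 0 were called higher. Over all genes 35.4% were called, 21.1% lower and 14.3% higher. With normexp background subtraction 3 of 9 were called, *Ccr7*, *Tcf7* and *Dapl1*, against 7.40% of all genes, 0.482% lower and 6.91% higher. The groups did not overlap for 7 of the 9 genes, against 24.6% of all genes. The median change of all genes was -0.20, and relative to it the 9 changes ran from -4.50 (*Dapl1*) to -0.16 (*Klf2*). Both groups were present on slide 2, with 2 mice each. The irradiated mice differed there on average by -4.54 for *Dapl1*, -3.18 for *Ccr7* and -0.56 for *Klf2*. The median of all genes on that slide was -0.23. With slide as a block 6 of 9 were called, against 10.2% of all genes, and *Bcl11b* (-1.85, adjusted p = 0.0610) and *Satb1* (-1.36, adjusted p = 0.192) were not, in a fit whose contrast rests on the 2 mice of each group on slide 2.

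The fall was also measured relative to other T cell RNA, for which the mean of *Cd3d*, *Cd3e*, *Cd3g*, *Cd5* and *Cd6*, genes of the T cell receptor complex and its co-receptors, served as a reference. The reference had a mean of 6.65 ± 0.14 (SD, n = 6) in unirradiated and of 5.20 ± 0.67 (SD, n = 6) in irradiated young mice, and all 5 of its genes fell, from -1.89 for *Cd5* to -1.12 for *Cd3g*. Relative to it, *Ccr7* fell by a further 1.69 (SE 0.23, adjusted p = 2.27e-05), *Tcf7* by 1.13 (SE 0.19, adjusted p = 0.000141) and *Dapl1* by 3.25 (SE 0.21, adjusted p = 5.75e-08). These 3 of 9 genes were called, against 57.9% of all genes, of which 10195 of 10308 were higher relative to the reference and 113 lower. *Lef1* was at -0.75, *Bcl11b* at -0.59, *Il7r* at -0.43, *Satb1* at -0.29 and *S1pr1* at 0.02, and none of these was called. *Klf2* was 1.09 higher relative to the reference (SE 0.36, adjusted p = 0.0131) and was not called. Within the young irradiated group *Dapl1* relative to the reference stayed between -4.63 and -3.97, and *S1pr1* ranged from -2.34 to 0.89. *Lef1* and *Klf2* were called as well, making 5 of 9, without young irradiated replicate 6 (12370 of all genes) and with limma's trended robust variance (58.4% of all genes). With *Cd3d*, *Cd3e* and *Cd3g* alone as the reference 6 of 9 were called, against 48.8% of all genes.

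**Figure D2:**
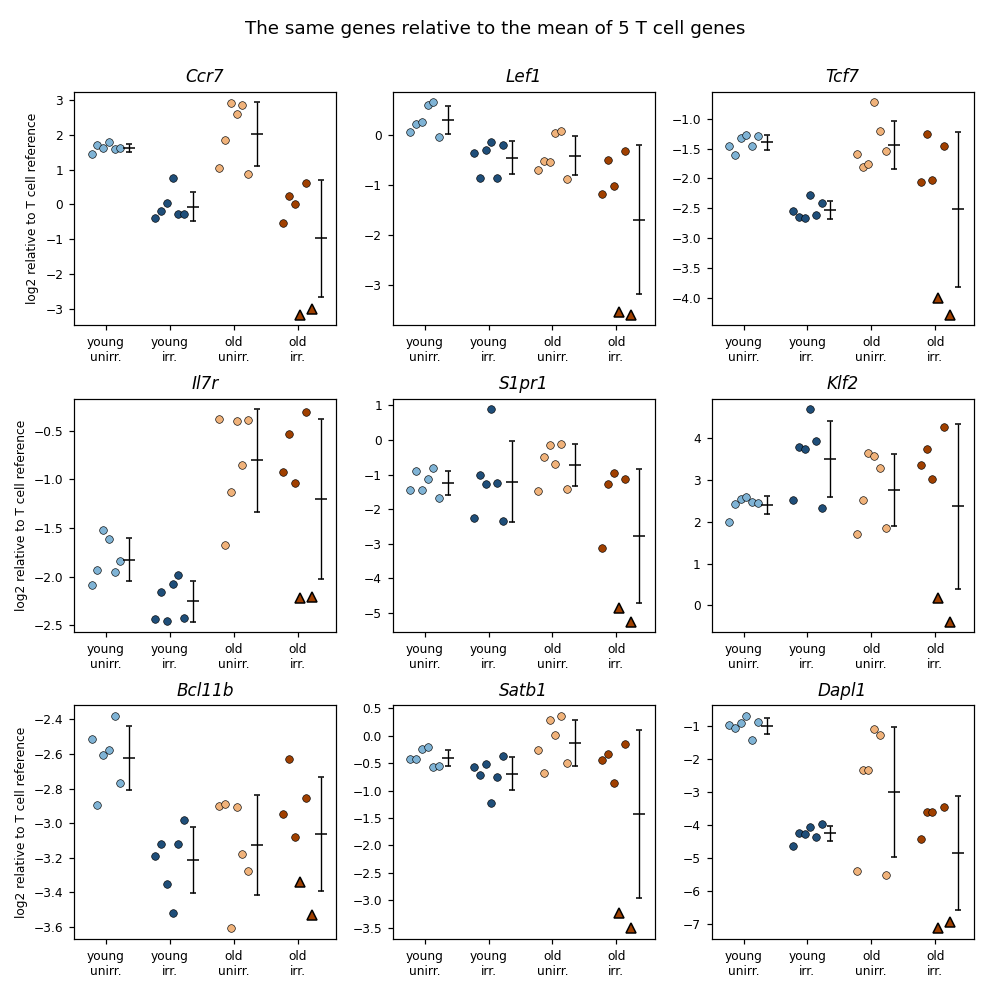
The same genes in each mouse as a log2 difference from that mouse's mean over 5 T cell genes (vertical axis), by group, with the group mean and SD beside the points. In young mice *Dapl1* goes from a median of -0.96 without irradiation to -4.25 with it, with little spread in either group.

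In old mice *Ccr7* had a median of 8.79 (8.70 to 9.23) without irradiation and of 5.98 (3.34 to 6.16) with it. Its groups did not overlap, and 4 irradiated mice lay between 5.83 and 6.16 with replicates 4 and 6 well below. *Ccr7* fell by 3.70 (SE 0.52, 12.96-fold, adjusted p = 0.000506, 6 mice per group), and by 2.83 without replicates 4 and 6. *S1pr1* had medians of 6.20 (5.40 to 6.48) and 3.84 (1.32 to 5.18) and fell by 2.74 (SE 0.61, 6.68-fold, adjusted p = 0.00517), and by 1.78 without these replicates. Its groups did not overlap. *Klf2* had medians of 9.62 (9.41 to 9.94) and 9.41 (6.19 to 9.81): 4 irradiated mice lay among the unirradiated ones or just below them, and replicates 4 and 6 were at 6.69 and 6.19. Its difference was -1.09 (SE 0.61, adjusted p = 0.184) with these arrays and -0.04 without them, and was not called either way.

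Of the transcription factors, *Lef1* fell in old mice by 1.98 (SE 0.49, adjusted p = 0.00804), *Satb1* by 1.99 (SE 0.52, adjusted p = 0.0105) and *Tcf7* by 1.77 (SE 0.46, adjusted p = 0.0109). *Lef1* and *Satb1* did not overlap between the groups, and *Tcf7* did, its highest irradiated mouse (4.64) lying above its lowest unirradiated one (4.55). Without replicates 4 and 6 the changes were -1.22, -1.19 and -1.14, and *Tcf7* was no longer called. *Bcl11b* had a median of 3.63 (2.70 to 4.81) in unirradiated and of 3.12 (2.70 to 3.43) in irradiated old mice, a difference of -0.63 (SE 0.37, adjusted p = 0.199). The unirradiated mice spanned the whole irradiated range, with replicates 1 and 6 at the top. *Il7r*, with medians of 5.56 (5.17 to 7.51) and 5.18 (4.28 to 5.45), differed by -1.10 (SE 0.45, adjusted p = 0.0768) and was not called. *Dapl1* had medians of 4.29 (2.32 to 5.01) and 2.04 (-0.62 to 2.54) and fell by 2.56 (SE 0.69, adjusted p = 0.0124). Unirradiated replicates 1 and 6 (2.32 and 2.40) already lay within the irradiated range, and irradiated replicates 4 and 6 were below 0 and not well above background, so the size of the fall is uncertain. Without these 2 arrays *Dapl1* was at -1.65 (adjusted p = 0.0286) and was not called.

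Altogether 6 of the 9 genes were called lower in old mice and 0 higher, against 24.9% of all genes called, 17.4% lower and 7.49% higher. Without irradiated replicates 4 and 6, *Tcf7* and *Dapl1* were not called, while 34.4% of all genes were, 22.7% lower and 11.7% higher. With normexp background subtraction limma called 0 of 9, against 0.542% of all genes. Scaled to each array's own spots well above background, 2 of 9 were called, *Ccr7* and *S1pr1*, with 4.52% of all genes lower and 11.5% higher. The groups did not overlap for 4 of the 9, against 22.5% of all genes. The median change of all genes was -0.26, and it was between -0.05 and 0.30 under the other scalings of the same signals and in the deposited table. Relative to the median shift the 9 changes ran from -3.44 (*Ccr7*) to -0.38 (*Bcl11b*). *Dapl1* was not called without unirradiated replicate 2, 3, 4 or 5 or without irradiated replicate 4 or 6 (changes from -2.54 to -2.17), nor were *Tcf7* and *Satb1* without unirradiated replicate 1 (-1.63 and -1.84) or 6 (-1.59 and -1.86). On slide 5, with 2 mice of each group, 8 of the 9 genes were lower on average, from -2.96 for *Ccr7*, and *Klf2* was at 0.04. The median of all genes there was -0.12. With slide as a block limma called 0 of the 9, with *Ccr7* at -2.96 (adjusted p = 0.0981), and 495 of all genes.

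In old mice the reference of 5 T cell genes had a mean of 6.87 ± 0.78 (SD, n = 6) without and of 6.18 ± 0.39 (SD, n = 6) with irradiation, and 0 of its 5 genes were called, with changes from -0.94 for *Cd5* to -0.19 for *Cd3g*. Old irradiated replicates 4 and 6 were not low in it but the highest of their group, at 6.51 and 6.58. Subtracting it sets them lower against the other mice of that group. Relative to the reference 1 of the 9 genes was called, against 11.9% of all genes: *Ccr7* fell by 2.999 (SE 0.68, adjusted p = 0.00932). Without replicates 4 and 6 it fell by 1.95 (SE 0.496, adjusted p = 0.00862) and was again the only 1 of the 9 called, as 1 of 3020 genes. *S1pr1* was 2.04 lower (adjusted p = 0.0640) and *Dapl1* 1.86 lower (adjusted p = 0.152), and *Bcl11b* differed by 0.06. Without replicates 4 and 6 *S1pr1* was at -0.90, *Dapl1* at -0.77 and *Bcl11b* at 0.25. *S1pr1* was also called without irradiated replicate 3 or 5, which made 2 of 9. With slide as a block 0 of 9 and 0% of all genes were called on this scale, so that count is not particular to the 9. On slide 5 alone *Ccr7* differed by -2.02. Without the arrays high in hepatocyte markers 6 of 9 were called, in an old irradiated group of replicates 1, 4 and 6. Over all genes 17.7% were then called, 4.61% lower.

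**Figure D3:**
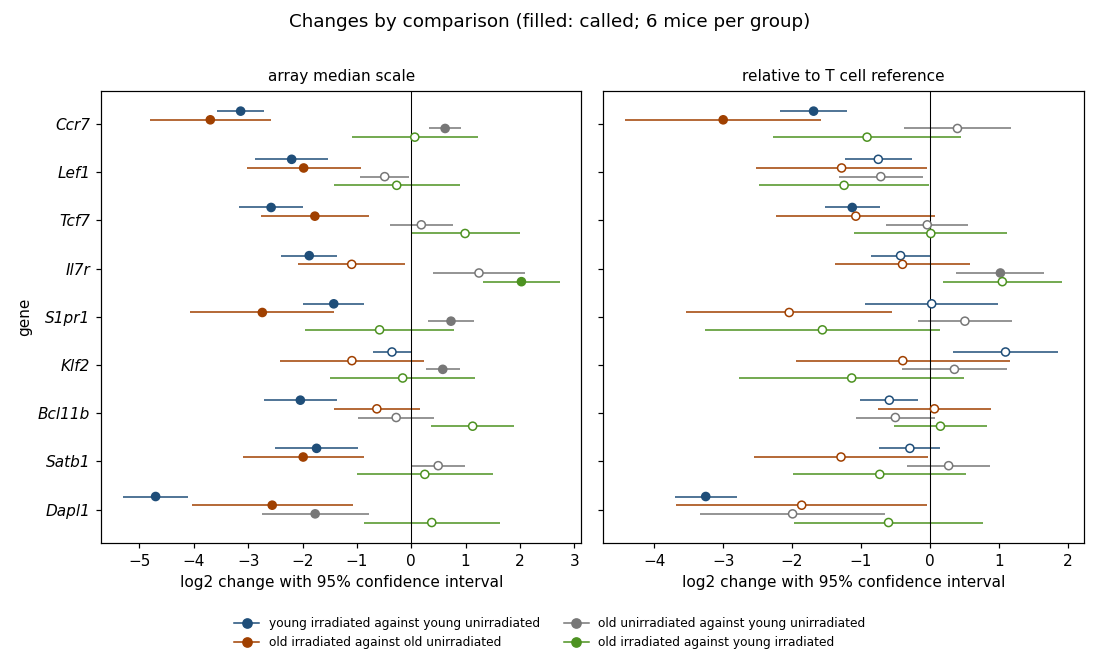
Log2 change of each gene in each comparison (horizontal axis) with its 95% confidence interval, on the array median scale (left) and relative to 5 T cell genes (right), 6 mice per group; filled points were called. In both ages the intervals of *Ccr7* after irradiation lie below 0 on both scales, and in old irradiated against young irradiated mice only *Il7r* is filled.

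Old and young mice were also compared before irradiation. *Il7r* was higher in every old mouse than in any young mouse, though the lowest old and the highest young mouse were both at 5.17 when rounded. Old mice were 1.25 higher on average (SE 0.40, adjusted p = 0.0112), and its p of 0.00745 missed the threshold of 0.005. It was called without old unirradiated replicate 2 (1.41) or 3 (1.42). *Dapl1* was lower in every old mouse than in any young mouse, by 1.77 (SE 0.46, 3.40-fold, adjusted p = 0.00324). With normexp background subtraction *Dapl1* was not called, nor was any other of the 11815 genes then tested. Old replicates 1 and 6 had the highest *Il7r* (7.34 and 7.51) and the lowest *Dapl1* (2.32 and 2.40) of the 6, and these are the 2 arrays unusually alike. With each alike pair counted as 1 sample *Il7r* was at 0.97 and not called, and *Dapl1* was at -1.46 and called. *Ccr7* was 0.62 higher in old mice (SE 0.14, adjusted p = 0.00104), *S1pr1* 0.73 (SE 0.20, adjusted p = 0.00394) and *Klf2* 0.58 (SE 0.15, adjusted p = 0.00262).

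All genes together had a median change of 0.63 in this comparison, and the 3 rises have to be read against it. Relative to that shift *Ccr7* was at -0.01, *Klf2* at -0.05 and *S1pr1* at 0.10, while *Il7r* was at 0.62, *Lef1* at -1.12, *Bcl11b* at -0.91 and *Dapl1* at -2.40. The calls were 4 of 9 (3 higher, 1 lower), against 63.9% of all genes, and the groups did not overlap for 4 of 9, against 48.6%. With arrays scaled to their 75th percentile the median of all genes was -0.0023 and 2 of the 8 genes then tested were called, *Dapl1* (-2.29) and *Lef1* (-1.01), both lower, against 37.3% of all genes called and 26.5% called lower. The same pair was called in the deposited table, at -2.55 and -1.31, against 25.9% of all genes. *S1pr1* was not called without young unirradiated replicate 1, 3, 4 or 6 or without old unirradiated replicate 1, 2 or 6 (changes from 0.66 to 0.72). Relative to the T cell reference 1 of 9 was called, *Il7r* at 1.02 (SE 0.31, adjusted p = 0.0239), against 16.2% of all genes, and it was not called without any 1 of the young mice or without old replicate 1 or 6. Without old replicate 5 *Dapl1* was called beside it.

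After irradiation *Il7r* differed between the ages. All 6 old irradiated mice (4.28 to 5.45) were above all 6 young irradiated mice (2.25 to 3.62), a difference of 2.03 (SE 0.33, 4.07-fold, adjusted p = 0.0144, limma). It was the only 1 of the 9 genes called, against 1.99% of all genes, and the only 1 whose groups did not overlap, against 5.05%. The number of all genes called, 355 with every mouse, ran from 30 to 511 without 1 mouse. The median of all genes was 0.20 here, and *Il7r* was 1.82 above it. Relative to the T cell reference, itself at 6.18 in old and 5.20 in young irradiated mice, *Il7r* was 1.05 higher (SE 0.40, adjusted p = 0.119), with overlapping groups, and was not called. The call was lost without young irradiated replicate 3 (1.96), with the replicate number as a block (adjusted p = 0.0857), in the deposited table (1.75), with own-spot scaling (1.78), with normexp background subtraction (1.37) and without the arrays high in hepatocyte markers (1.45). Most other genes lost theirs there too. Over all genes 30 were called without that mouse, and in the order given 0.0112%, 0.256%, 0.691%, 0.305% and 0.152% with the other settings. *Bcl11b*, at 1.13 (SE 0.36, adjusted p = 0.105), and *Tcf7*, at 0.99 (SE 0.47, adjusted p = 0.240), were not called.

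Without old irradiated replicates 4 and 6, 5 of 9 were called higher in old than in young irradiated mice: *Il7r* by 2.35, *Tcf7* by 1.62, *Dapl1* by 1.28, *Ccr7* by 0.93 and *Klf2* by 0.89. Over all genes 28.4% were then called and 20.2% called higher. With them *Ccr7* differed by 0.07, *Klf2* by -0.16 and *Dapl1* by 0.38. Leaving out the arrays high in hepatocyte markers leaves 3 old irradiated mice, replicates 1, 4 and 6, of which 2 are the arrays that stand apart, and 3 young irradiated mice. There 0 of 9 were called, against 0.152% of all genes, and *Ccr7*, *Dapl1*, *Satb1* and *Tcf7* were then lower in old mice, at -1.22, -1.07, -1.11 and -0.11, by values that were not called. Relative to the T cell reference 0 of 9 were called by limma, against 7.68% of all genes, of which 1359 of 1367 were lower; 4983 genes had an unadjusted p below 0.05. Without replicates 4 and 6 *Il7r* was called on that scale, as 1 of 3415 genes called among 17805, against 1367 called with all arrays.

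Whether age changed the response itself was tested as an interaction over all 24 arrays. By limma 0 of the 9 genes were called, and 0% of all genes: 4197 genes had an unadjusted p below 0.05 and the lowest adjusted p was 0.0604. The random variance test and limma with a trended robust variance also called 0 genes. Scaling to the 75th percentile gave 8 genes, quantile scaling 7, scaling to probes detected on every array 8 and the mean of a gene's probes 2 (*Kcnmb4* and *Vma21*), and none of the 9 was among them. The change in old mice minus that in young mice was 2.14 for *Dapl1* (SE 0.78, adjusted p = 0.139), 1.41 for *Bcl11b* (SE 0.49, adjusted p = 0.135) and -1.31 for *S1pr1* (SE 0.69, adjusted p = 0.241). The weaker fall of *Dapl1* in old mice and the missing call of *Bcl11b* and *Il7r* there are thus not shown to differ from the young response. Without old irradiated replicates 4 and 6 *Dapl1* was called, at 3.05 (adjusted p = 0.0470), as 1 of 27 genes. Without the arrays high in hepatocyte markers *Ccr7* (-1.81) and *S1pr1* (-2.43) were called, as 2 of 3240 genes. Replicates 4 and 6 are then 2 of the 3 old irradiated mice, and without those 2 arrays alone *Ccr7* was at 0.31 and *S1pr1* at -0.35, neither of them called. Leaving out old irradiated replicate 3 gave 1052 genes and 0 of the 9. Relative to the T cell reference 0 of 9 were called, against 0.00562% of all genes, which is the single gene *Rragb*, named here after its value was seen.

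The 9 genes did not move as a block from mouse to mouse. Over the 24 mice, which share the 4 groups, the 36 pairs of genes had a median Pearson correlation of 0.748, from 0.166 to 0.937, and 6 pairs exceeded 0.9. Around the group means the median was 0.618, and 0.304 without old irradiated replicates 4 and 6. *Bcl11b* followed the mean of the 5 T cell genes, with a correlation of 0.946 over the mice and of 0.909 around the group means. *Il7r* followed it less (0.847 and 0.661), and *S1pr1* (0.346 and -0.292) and *Klf2* (0.0723 and -0.353) did not. *Ccr7* and *Dapl1* had correlations of 0.591 and 0.456 over the mice and of -0.142 and -0.369 around the group means. These are descriptions over arrays that share slides and scan days, and they carry no test.

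The genes most like the mean of the 9 over the 24 arrays, among 18565 candidates, were *Nsg2* (Pearson correlation 0.97), *Arhgef18* (0.97), *Rhobtb2* (0.97), *Ing5* (0.97), *B3gnt8* (0.97), *Lta* (0.97), *Scml4* (0.96), *Smad7* (0.96), *Nfatc3* (0.96) and *Mycbp2* (0.96). *Lta* encodes the cytokine lymphotoxin alpha, which lymphocytes make, and *Smad7* an inhibitor of TGF-beta signalling. The closest to *Ccr7* were *Scml4* (0.99) and *B3gnt8* (0.99), and the closest to *Dapl1* were *Lta* (0.89) and *Wdfy1* (0.89). *Lef1* was nearest to *Tdrp* (0.94) and *Nsg2* (0.93), *Tcf7* to *Fam78a* (0.97) and *Dgka* (0.97), and *Satb1* to *Cep192* (0.97) and *Pde4b* (0.96). *S1pr1* was nearest to *Ccdc191* (0.98) and to *H2-DMb1* (0.98), an antigen presentation gene of B cells and other class II positive cells, and *Klf2* to *Ube2g1* (0.97) and *Arnt* (0.96). *Il7r* was nearest to *Dennd2d* (0.95) and *Plcg1* (0.94), and *Bcl11b* to ENSMUST00000103299 (0.95). *Plcg1* encodes a phospholipase of T cell receptor signalling.

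In the lists that follow, the shares of all genes to compare with are 21.1% lower and 14.3% higher in young mice, and 17.4% lower and 7.49% higher in old mice. Among 13 further regulators of naive T cells, 8 fell and 1 rose in young mice, and 8 fell and 1 rose in old mice, with list medians of -1.24 and -1.04. *Ets1*, a factor of lymphocyte development, fell by 1.95 and 2.11, and *Foxp1*, which keeps T cells quiescent, by 1.497 and 2.27, while *Klf3* (-0.37 and -0.75) was not called. In 12 other homing and adhesion genes 7 fell and 2 rose in young mice and 4 fell and 1 rose in old mice. The rises included the leukocyte integrin *Itgb2* in both ages (1.43 and 0.88). Of 10 genes of IL-7 signalling, 2 rose and 1 fell in young and 1 rose and 2 fell in old mice, with *Jak1* at -0.02 and 0.04, counts close to those shares. Relative to the T cell reference, 3 of the 13 regulators were called higher and 1 lower in young mice, and 1 higher and 1 lower in old mice, against 57.3% of all genes higher and 0.635% lower in young and 10.9% and 0.988% in old mice.

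Of 15 other T cell markers 8 fell and 0 rose in young mice, with *Thy1* at -1.34 and *Lck*, the kinase of the T cell receptor, at -1.04, and 1 fell in old mice, *Cd2* at -1.56. *Cd4* differed by -0.16 and 0.45. Of 13 genes of activated, memory and effector T cells 4 rose and 0 fell in young mice (14.3% and 21.1% of all genes), with *Cd44*, the adhesion receptor that marks antigen-experienced cells, up by 1.52, and 0 rose and 1 fell in old mice (7.49% and 17.4%), *S100a4* at -1.22. Before irradiation 9 of these 13 genes were higher in old than in young mice and 0 lower, with *Cd44* at 1.21 and *Id2* at 1.27, against a median of 0.63 for all genes, of which 48.5% were called higher. Of 12 natural killer and cytotoxic genes 6 rose in young mice, among them *Gzma* (1.78) and *Gzmb* (1.94), and 1 rose in old mice. Of 6 thymocyte genes 3 were tested, *Dntt* fell in young mice (-2.17) and 0 were called in old mice, and *Ptcra* and *Rag2* were well above background on no array.

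All 12 B cell markers fell in young mice and 11 of the 12 in old mice, with list medians of -2.66 and -4.01, and *Cd79a* and *Cd79b* fell by 2.83 and 2.68 in young and by 4.13 and 4.13 in old mice. The median level of the summed list went from 11.03 to 8.29 in young and from 11.43 to 7.30 in old mice. *Ccr7*, *S1pr1* and *Satb1* are also B cell genes, and the part of B cells in their fall was not tested.

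All 10 platelet genes rose in young and in old mice, with *Pf4* up by 1.40 and 1.32, where 14.3% and 7.49% of all genes were called higher. Of 11 neutrophil genes 4 rose in young and 0 in old mice, with *S100a9* at 1.64 and 0.45. Of 10 monocyte genes 5 rose and 1 fell in young mice, and 1 rose and 3 fell in old mice, where the list's mean level was 3.59 and 3.65 in replicates 4 and 6 and at least 6.04 in the other 4. Tissue macrophage genes, 8 of 10 tested, all rose in young mice, with *Cd5l* up by 5.43, and 1 rose in old mice, *C1qb* by 2.64. Endothelial genes rose in both ages, 9 and 10 of the 11 tested, with *Vwf*, which platelets also contain, up by 1.66 and 1.67. *Emcn* and *Tek*, 2 defining endothelial genes, were well above background on no array, and the same held for *Ccl22* and *Xcr1* of the dendritic cell list, in which 2 of 7 rose and 3 fell in young mice and 1 rose and 1 fell in old mice. Of 9 erythroid genes 1 rose and 4 fell in young and 0 were called in old mice, with *Hba-a1* at -0.09 and 0.15. Of 12 hepatocyte genes, 8 of them tested, 0 were called in young and 7 rose in old mice. The part of these shifts in the levels of the 9 genes was not tested.

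**Figure D4:**
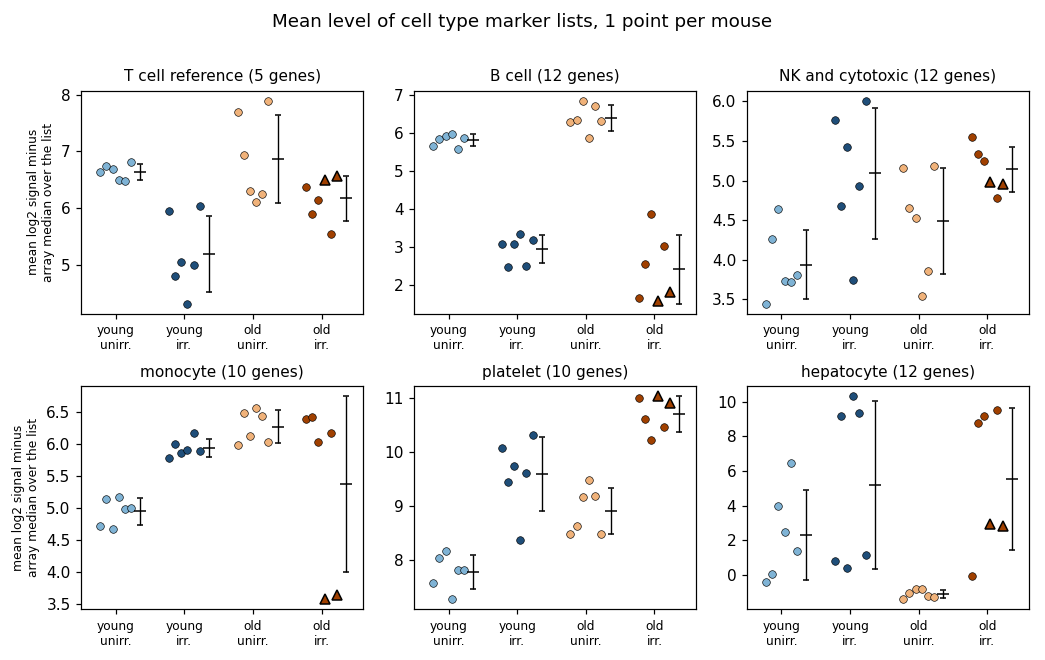
Mean level of 6 marker lists (log2 signal minus array median, vertical axis) in each mouse by group, with the group mean and SD beside the points and old irradiated replicates 4 and 6 as triangles. The T cell reference and B cell lists are lower in irradiated young mice, and in old mice the B cell list drops to a median of 2.19.

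The promoters of the 9 genes were searched for short motifs of factors that act on them. RefSeq windows of 250 bases before the start on GRCm38.p6 were held for 7 of the 9 genes, in 15 entries, and there were none for *Ccr7* and *S1pr1*. The letters CTTTGAT (TCF and LEF family), GTAAACA (FOXO), CCGGAAG (ETS) and CCACACCC (KLF) were searched on both strands, and none of the 4 contains another. In all 32851 windows of this length the shares holding them were 3.21%, 3.17%, 6.91% and 3.20%. The TCF and LEF letters were in 0 of the 15 entries. The FOXO letters were in the *Dapl1* window, at position -164 from the start, and 1 of the 2 *Tcf7* windows held the ETS and the KLF letters on the opposite strand. The windows of *Dapl1* (chr2:59484403-59484652, plus strand) and *Il7r* (chr15:9529877-9530126, minus strand), a gene whose RNA was lower and a gene whose RNA was higher in every old than in any young unirradiated mouse, are shown 5′ to 3′ with the FOXO letters in capitals.
*Dapl1*: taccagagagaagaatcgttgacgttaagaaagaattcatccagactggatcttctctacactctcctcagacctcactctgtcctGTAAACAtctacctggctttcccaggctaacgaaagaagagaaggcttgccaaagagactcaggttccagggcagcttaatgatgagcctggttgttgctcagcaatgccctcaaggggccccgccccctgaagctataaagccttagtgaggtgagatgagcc
*Il7r*: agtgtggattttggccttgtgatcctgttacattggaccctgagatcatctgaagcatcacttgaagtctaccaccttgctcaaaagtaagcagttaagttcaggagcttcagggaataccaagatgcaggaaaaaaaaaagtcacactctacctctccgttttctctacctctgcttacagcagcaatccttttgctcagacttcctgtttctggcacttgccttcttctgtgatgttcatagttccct
The *Il7r* window held 0 of the 4 motifs. A match is a description of letters and not a binding site.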

How the data were processed

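Per the file headers, the deposited raw files hold Agilent Feature Extraction 12.0.2 intensity values of 1-colour arrays, and the authors' deposited table holds log2 normalized intensity. The background-subtracted processed signal was used as log2 intensity, as deposited, minus each array's own median, taken from 43020 spots after controls were removed. The named genes are those whose probe annotation carries the gene's name, with the probe of highest mean taken for a gene with several. Non-uniform spots were set missing. A probe was dropped if its spot was flagged non-uniform, or its signal did not significantly exceed background, on at least 25% of arrays. This background flag is separate from, and looser than, the well-above-background flag named elsewhere. Probes 1.5-fold from their median in fewer than 5 arrays were dropped too. Of 29742 genes 18737 passed the first filter and 17805 were tested with limma's two-sided moderated test, and a gene was called at p below 0.005 with a Benjamini-Hochberg adjusted p below 0.05 over all tested genes. The T cell reference is the mean of *Cd3d*, *Cd3e*, *Cd3g*, *Cd5* and *Cd6*. Other lists were homing and adhesion, naive T cell regulators, IL-7 signalling, T cell, activated and memory T cell, natural killer, B cell, thymocyte, endothelial, dendritic, neutrophil, monocyte, macrophage, platelet, erythroid and hepatocyte genes. The genes and the lists were chosen with earlier results of these data known. Replicate numbers do not pair mice. Alternatives tried were other scalings (75th percentile, quantile, medians over spots well above background), normexp background, the deposited table, no filter for dim probes, the mean of a gene's probes, a random variance test, limma with a trended robust variance, 1 fit of 24 arrays, replicate and slide blocks, *Cd3d*, *Cd3e* and *Cd3g* alone as reference, and leaving out arrays. Tools were R 4.3.3, limma 3.58.1, data.table (version 1.17.8), Python 3.11.15, numpy 2.4.6, pandas 2.3.3 and matplotlib 3.10.9.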

Additional observations from a re-analysis of the deposited data

Results flagged for a closer look

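By Dixon's ratio, 3 of the 36 groups of 6 mice held a value far from the rest: *S1pr1* in young irradiated replicate 4 at 5.22 (ratio 0.923), *S1pr1* in old unirradiated replicate 4 at 5.40 (ratio 0.696) and *Dapl1* in young unirradiated replicate 5 at 5.04 (ratio 0.669). By chance about 1 in 20 groups would hold such a value. All 3 values were kept. The cause was not tested.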

How the results depend on the processing

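The alternatives for similar arrays, arrays that stand apart, arrays high in hepatocyte markers, each array's own spots and the T cell reference in the interaction were added after the data were seen. In young mice after irradiation 8 genes were called whichever mouse was left out (8 to 8), and normexp background gave 3 (*Ccr7*, *Dapl1*, *Tcf7*), with *Klf2* at 0.22. In old mice the count ran from 4 to 6 without 1 mouse, and was 0 with normexp, 0 with slide as a block (*Klf2* 0.044) and 2 with each array's own spots (*Ccr7*, *S1pr1*).

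Before irradiation the count of old against young ran from 3 to 5 without 1 mouse. It was 2 (*Dapl1*, *Lef1*) with the 75th percentile, quantile, well-above-background and own-spot scalings and in the deposited table, 2 (*Dapl1*, *Il7r*) in 1 fit of 24 arrays, and 0 with normexp. The shares of all genes called were 37.3%, 38.3%, 35.8% and 26.9% with these 4 scalings. They were 25.9% in the deposited table, 34.9% in 1 fit and 0% with normexp. In the order 75th percentile, quantile, probes well above background on all arrays, deposited and own spots, *Satb1* was at -0.024, -0.18, -0.093, -0.26 and -0.17 and *Tcf7* at -0.33, -0.46, -0.40, -0.55 and -0.48. *Tcf7* was at -0.26 with normexp, *Ccr7* at -0.042 in the deposited table and -0.041 with own spots, and *Klf2* at -0.085 with own spots.

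After irradiation old against young gave 0 to 1 without 1 mouse, 0 with normexp, the deposited table, own spots and without hepatocyte-high arrays, 2 (*Bcl11b*, *Il7r*) in 1 fit and with slide as a block, and 5 without the 2 arrays that stand apart. The replicate block, which paired mice by number although the numbers carry no pairing, gave 0, against 0.0112% of all genes. Over all genes 14.4% were called in 1 fit and 7.75% with slide as a block, against 1.99% in the main fit. The share was 0.305% with normexp, 0.256% in the deposited table and 0.691% with own spots. It was 0.152% without hepatocyte-high arrays and 28.4% without the 2 arrays that stand apart. No slide held both ages, so a slide block gives no comparison of ages within a slide. *Ccr7* was at -0.16, -0.24, -0.21, -0.25 and -0.19 in the order above, -0.15 with normexp, -0.029 with similar arrays as 1 and -1.22 without hepatocyte-high arrays. *Satb1* was at -0.060 (quantile), -0.022 (well above background), -0.056 (deposited), -0.0017 (own spots) and -1.11 (without hepatocyte-high arrays), where *Dapl1* was at -1.07 and *Tcf7* at -0.11. Without the apart arrays *Klf2* was at 0.89, *Lef1* at 0.49 and *S1pr1* at 0.38. Without 1 mouse *Ccr7* ran from -0.13 to 0.44, *Klf2* from -0.41 to 0.31, *Lef1* from -0.45 to 0.039 and *Satb1* from -0.033 to 0.59.

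The interaction count was 0 to 0 without 1 mouse, 1 (*Dapl1*) without the apart arrays and 2 (*Ccr7*, *S1pr1*) without hepatocyte-high arrays. *Satb1* was at 0.048, 0.12, 0.071, 0.21 and 0.17 in the order above, 0.11 with slide as a block and 0.55 without the apart arrays, and ran from -0.53 to 0.092 without 1 mouse. *Ccr7* was at 0.21 and 0.31 and *Klf2* at 0.60 and 0.31 with slide as a block and without the apart arrays. *Lef1* was at -1.25 and *Tcf7* at -0.25 without hepatocyte-high arrays, and *Lef1* at -0.53 relative to the T cell reference.

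Relative to the T cell reference the young count ran from 3 to 5 without 1 mouse, and was 5 with trended robust variance and 6 with the *Cd3d*, *Cd3e* and *Cd3g* reference. The old count ran from 1 to 2 without 1 mouse. It was 2 in 1 fit (20.8% of all genes), 2 with the replicate block (12.5%), 0 with slide as a block (0%) and 6 without hepatocyte-high arrays. On this scale 11.9% of all genes were called in old mice in the main fit, 0.988% lower. Without the hepatocyte-high arrays 17.7% were called, 4.61% lower. The count of 6 rests on 3 old irradiated mice, 2 of them the arrays that stand apart. It is therefore not read as a trait of these genes. The unirradiated count ran from 0 to 2 without 1 mouse. It was 2 with quantile scaling (20.6% of all genes) and 7 with slide as a block (74.6%), though no slide held both ages. It was 0 with normexp (0.973%), without the filter for dim probes (10.5%) and in 1 fit (10.8%). With similar arrays as 1 (20.1%) and without hepatocyte-high arrays (14%) it was 0 as well. The irradiated count was 0 to 0 and was 1 (*Il7r*) without the apart arrays, where 3415 of all genes were called. Without hepatocyte-high arrays the old irradiated group was replicates 1, 4 and 6, of which 2 stand apart. The cause was not tested.

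Each group held 6 mice, and slides 2 and 5 alone held irradiated and unirradiated mice together. The deposited files held no cell counts. Age was not separable from scan day, and each gene rests on few probes. The number of genes called after irradiation in old mice, and in old against young irradiated mice, moved with the 2 arrays that stand apart. Within an age, a fit with slide as a block rests on 2 mice of each group on 1 slide, so its lost calls are not shown to be an effect of slide.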
